A study of Mus musculus with 6 samples.

Results

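Transcripts of the interleukin 12 family, interleukin 6 and interleukin 10 were followed in alveolar macrophages, the phagocytes of the lung's air spaces, after saline or bleomycin was given into the trachea. The genes were taken by name, not by their values: Il12a, Il12b, Il23a, Il27, Ebi3, Il6 and Il10. All 7 have a row among the 22962 genes of the deposited table, and 6 passed the filter on low values (at least 10 in at least 3 libraries), which 13512 genes passed. Il10 passed through its bleomycin libraries alone, Il12b and Il23a passed only with the help of theirs, and Il12a did not pass.

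All mice were C57BL/6, and no other allele or transgene is named. The airways received saline or bleomycin, a DNA-damaging drug used as a model of lung fibrosis, 2 weeks before lavage, and the age of the mice is not given. Lavage cells that stuck to a culture plate within 30 minutes were lysed, so the samples are adherent lavage cells and not a sorted population. Saline replicates 1, 2 and 3 and bleomycin replicates 1, 2 and 5 were sequenced, 3 libraries per group. The labels do not say that each library came from a separate mouse, so a p-value measures only the spread between these libraries, which may in part be technical. The question was which transcripts differ between macrophages of normal and of fibrotic lungs.

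The cytokines of the interleukin 12 family are pairs of subunits. The p40 chain, from Il12b, joins p35, from Il12a, to make interleukin 12, and joins p19, from Il23a, to make interleukin 23. EBI3, from Ebi3, joins p28, from Il27, to make interleukin 27. Interleukin 12 drives T helper 1 and natural killer cells to make interferon gamma, and interleukin 23 sustains cells that make interleukin 17. Interleukin 6 is an inflammatory cytokine that signals through gp130, which the interleukin 27 receptor also uses. Interleukin 10 acts back on macrophages through STAT3 and restrains their inflammatory cytokines. In macrophages these genes are typically near silent at rest and are induced by microbial or damage signals through NF-kB and partner factors.

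Because several of the genes respond to the same signals, the 250 bases before the start site are shown for Il12b and Ebi3, which rose, and for Il6. They are RefSeq promoter sequences on GRCm38.p6, written 5′ to 3′. The table held entries for 4 of the 7 genes (Il12a, Il12b, Ebi3 and Il6). Capitals mark matches, on either strand, to the motifs searched: the NF-kB forms GGGANTTTC and GGGGAATTT, C/EBP as TTGCNNAA, AP-1 as TGANTCA, a short cyclic AMP element as TGACG, STAT as TTCNNNGAA, an interferon element as GAAANNGAA, and TATA as TATANA.
Il12b, chr11:44399813-44400062, plus strand: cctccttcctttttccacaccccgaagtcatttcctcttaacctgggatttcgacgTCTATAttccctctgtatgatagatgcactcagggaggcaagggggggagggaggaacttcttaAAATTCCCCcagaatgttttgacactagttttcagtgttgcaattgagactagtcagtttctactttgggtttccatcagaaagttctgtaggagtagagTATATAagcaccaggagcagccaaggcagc
Ebi3, chr17:55952373-55952622, plus strand: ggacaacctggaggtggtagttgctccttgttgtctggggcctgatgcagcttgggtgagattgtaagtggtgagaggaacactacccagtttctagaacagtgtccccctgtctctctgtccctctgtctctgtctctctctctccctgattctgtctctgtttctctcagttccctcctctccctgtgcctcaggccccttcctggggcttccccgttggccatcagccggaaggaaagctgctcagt
Il6, chr5:30012864-30013113, plus strand: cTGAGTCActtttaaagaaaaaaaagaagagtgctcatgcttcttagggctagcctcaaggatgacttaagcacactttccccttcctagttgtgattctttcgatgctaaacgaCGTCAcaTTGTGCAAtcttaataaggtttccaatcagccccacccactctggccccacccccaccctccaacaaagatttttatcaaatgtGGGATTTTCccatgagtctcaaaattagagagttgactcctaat
The Il12b window held GGGGAATTT on the minus strand at position -130 from the start, a form found in 0.231% of 32851 promoter windows of the same length. It also held TATANA at positions -194 and -30 (22.6% of windows hold that motif). The Il6 window held GGGANTTTC at position -44 (0.941% of windows), C/EBP at -128 (9.56%), AP-1 at -249 (6.75%) and the short cyclic AMP element at -135 (17.8%), and no 2 matches in these windows overlapped. The letters of the NF-kB forms were chosen with these promoters known, and none of the listed motifs was found in the Ebi3 window; the STAT and interferon forms occur in 7.02% and 7.13% of windows. The matches are descriptions of letters and do not show that a factor bound.

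Values below are normalized read counts, that is reads divided by 1 size factor per library, so that 3 reads correspond to 2.59 to 3.3 depending on the library. Total reads recovered from the values were 27654799 to 29899133 in saline and 28916201 to 37147983 in bleomycin libraries. Differences are log2 fold changes of bleomycin over saline on the log2(value + 1) scale ± SE from a limma fit across all tested genes, with n = 3 per group and p-values adjusted by the Benjamini-Hochberg method. On this scale changes of genes near 0 come out too small. A fold printed with a log2 value is that value turned back from log2, and is not the ratio of the printed means. Of the 13512 tested genes 9.76% were called higher and 3.9% lower, 13.7% in all, at an adjusted p under 0.05. Libraries of the same group differed by more than sampling noise, with a chi-square of 18.5 to 92.1 per gene, so no library was a copy of another. Saline replicate 2 and bleomycin replicate 1 stood apart from their groups for several of the genes, and the values without them are given where they move a call.

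Il12b, Ebi3 and Il10 rose after bleomycin, which is 3 of the 6 tested genes, and none of the 6 was called lower. In each of the 3 every bleomycin library lay above every saline library, which was so for 17.2% of all tested genes, beside 13.6% with every bleomycin library below and 30.8% in either direction. The median log2 fold change of the 6 was 1.78, beside -0.01 over all tested genes. These counts hold Il10, which could pass the filter only where it was high. They also hold Il12b and Il23a, whose lowest saline values were 5.30 and 2.94, so both needed a bleomycin library to pass. The counts therefore describe the genes and are no test of them as a group. In bulk RNA, more cells of a type that makes a cytokine and more RNA per cell cannot be told apart.

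**Figure D1:**
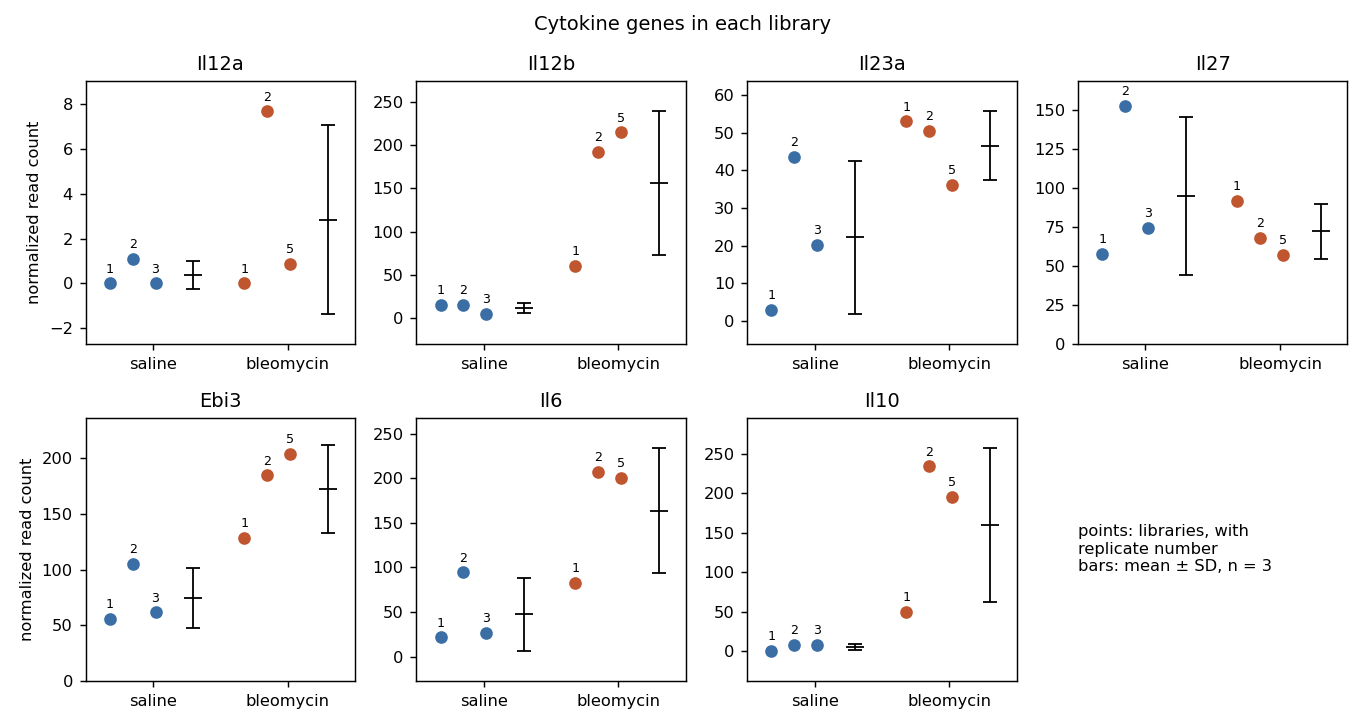
Normalized read counts (y axes, linear and each with its own range) of the 7 cytokine genes in the 3 saline and 3 bleomycin libraries; points are libraries with their replicate numbers, and bars show the mean ± SD of 3 libraries. Il12b, Ebi3 and Il10 do not overlap between groups, whereas saline replicate 2 reaches into or past the bleomycin range for Il23a, Il27 and Il6.

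Il12b (ENSMUSG00000004296, chromosome 11, 44400063 to 44414033, GRCm38), the p40 chain shared by interleukins 12 and 23, had values of 15.7, 15.2 and 5.30 in saline replicates 1, 2 and 3 and of 61.1, 192 and 215 in bleomycin replicates 1, 2 and 5. All 3 bleomycin libraries were above the highest saline library, and bleomycin replicate 1 was the lowest of its group. Means were 12.1 ± 5.86 and 156 ± 83 (SD, n = 3), 11.5-fold higher after bleomycin (log2 3.52 ± 0.57, limma adjusted p = 0.00448). The reads behind these values were 35 over the saline group (95% Poisson interval 24.4 to 48.7) and 492 over the bleomycin group (450 to 538). Il12b was called in each of the 18 other settings, with log2 2.74 to 4.32.

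Its partner for interleukin 12, Il12a (ENSMUSG00000027776, chromosome 3, 68690644 to 68698547), was close to absent from the reads. It had 0, 1 and 0 reads in saline replicates 1, 2 and 3 and 0, 7 and 1 reads in bleomycin replicates 1, 2 and 5. Of its 8 bleomycin reads, 7 came from bleomycin replicate 2, and the groups overlap at 0. Per size factor the ratio of bleomycin to saline reads was 7.25 with a 95% binomial counting interval of 0.971 to 322, so no difference was detectable at this depth. Per kb of exon, Il12b was above Il12a in every library, at 2.70 to 109 normalized reads per kb where Il12a had 0 to 4.52. A ratio of Il12b to Il12a could not be taken in the 3 libraries with 0 Il12a reads.

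Il23a (ENSMUSG00000025383, chromosome 10, 128296139 to 128298752), the p19 chain of interleukin 23, had values of 2.94, 43.5 and 20.1 with saline and 53, 50.5 and 36.2 with bleomycin. The saline libraries spread widely and saline replicate 2 lay within the bleomycin range. Il23a did not pass the test (log2 1.60 ± 0.78, 95% interval -0.18 to 3.38, limma adjusted p = 0.245), on 62 saline and 147 bleomycin reads. Its fold change was at log2 0.61 without saline replicate 1 and 2.36 without saline replicate 2, and neither passed (limma adjusted p = 0.43 and 0.0763). Reads of Il12b per read of Il23a were 5.33, 0.35 and 0.263 with saline and 1.15, 3.80 and 5.93 with bleomycin. The groups overlapped, and the ratio did not pass an exact two-sided permutation test (log2 difference 1.91, p = 0.3, 0.45 adjusted over 3 ratios; the smallest p that 3 against 3 libraries allow is 0.1).

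Ebi3 (ENSMUSG00000003206, chromosome 17, 55952640 to 55957022), the chain that pairs with p28, had values of 55.9, 105 and 61.5 in saline replicates 1, 2 and 3 and of 128, 185 and 204 in bleomycin replicates 1, 2 and 5. Saline replicate 2 was the highest saline library and came closest to bleomycin replicate 1. Means were 74.3 ± 27.1 and 172 ± 39.3, 2.35-fold higher after bleomycin (log2 1.23 ± 0.30, limma adjusted p = 0.0289), on 212 and 548 reads. The rise rests on few libraries: it did not pass without saline replicate 1 (adjusted p = 0.0825), saline replicate 3 (0.0916), bleomycin replicate 2 (0.111) or bleomycin replicate 5 (0.128), all by limma, nor without an intensity trend (0.0522). With the replicate number as a block Ebi3 was at log2 0.994 and was not called either (limma adjusted p = 0.159). Of its exon bases 23.4% are shared with Gm16712 on the opposite strand, which had values of 1.96, 16.3 and 7.42 with saline and 23.4, 19.8 and 14.7 with bleomycin. The strand setting of the counting is not given, so reads in the shared bases could not be assigned with certainty.

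Il27 (ENSMUSG00000044701, chromosome 7, 126589010 to 126594941), the p28 chain, had values of 57.9, 152 and 74.2 with saline and 91.6, 68.1 and 56.9 with bleomycin. Saline replicate 2 was above all other libraries, and of the bleomycin libraries replicate 1 lay above, replicate 2 between and replicate 5 just under the other saline values. Il27 did not pass (log2 -0.29 ± 0.38, 95% interval -1.15 to 0.57, limma adjusted p = 0.709), and without saline replicate 2 its sign turned (log2 0.11, adjusted p = 0.888). Reads of Ebi3 per read of Il27 were 0.966, 0.693 and 0.829 with saline and 1.40, 2.71 and 3.59 with bleomycin. The ratio was therefore higher in every bleomycin than in every saline library (log2 difference 1.54). The exact two-sided permutation p was 0.1, the smallest the design allows, and 0.3 adjusted over 3 ratios, so it did not pass. Il27 shares 10.1% of its exon bases with Apobr on the opposite strand, whose values were 4352 to 6016 and lower in each bleomycin than in each saline library, so the level of Il27 is uncertain.

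Il6 (ENSMUSG00000025746, chromosome 5, 30013114 to 30019981) had values of 21.6, 94.5 and 26.5 in saline replicates 1, 2 and 3 and of 82.6, 208 and 201 in bleomycin replicates 1, 2 and 5. The groups overlapped in 1 pair of libraries, because saline replicate 2 was above bleomycin replicate 1. The means were 47.5 ± 40.8 and 164 ± 70.3, and Il6 missed the threshold (log2 1.96 ± 0.58, 95% interval 0.65 to 3.28, limma adjusted p = 0.058), on 134 saline and 514 bleomycin reads. It passed without saline replicate 2 (log2 2.61, adjusted p = 0.00965) and without bleomycin replicate 1 (log2 2.40, 0.0294), and by DESeq2 on the recovered reads (0.00967). Without both libraries, a setting added after the data were seen, it was at log2 3.04 (limma adjusted p = 0.000516). With the replicate block, which also called Il6 (limma adjusted p = 0.025), these were 5 of the 18 other settings. In the remaining 13 Il6 stayed uncalled. With any 1 of saline replicates 1 and 3 and bleomycin replicates 2 and 5 removed, its limma adjusted p was 0.152 to 0.19. The adjusted p was 0.0905 by edgeR and 0.1205 by limma with no intensity trend.

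Il10 (ENSMUSG00000016529, chromosome 1, 131019845 to 131024974) had the largest fold change of the 6 tested cytokine genes. Its values were 0.981, 7.61 and 8.48 with saline and 49.4, 234 and 196 with bleomycin, so the lowest bleomycin library was above the highest saline library and bleomycin replicate 1 was again the lowest of its group. Means were 5.69 ± 4.10 and 160 ± 97.4, 24.3-fold higher after bleomycin (log2 4.61 ± 0.76, limma adjusted p = 0.00489). The saline level rests on 16 reads over the group (95% Poisson interval 9.15 to 26) and the bleomycin level on 495 (452 to 541), and the interval on the saline reads covers counting error only. Il10 was called in each of the 17 other settings that tested it, with log2 3.78 to 5.63. Reads of Il12b per read of Il10 were 16, 2 and 0.625 in saline, where they rest on few reads, and 1.24, 0.822 and 1.10 in bleomycin libraries. The ratio of p40 to interleukin 10 reads overlapped between groups and did not pass (log2 difference -1.39, exact two-sided permutation p = 0.5, also 0.5 adjusted over 3 ratios).

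To compare the genes with each other, values were divided by the length of the union of their exons. In saline libraries the order of the mean normalized reads per kb was Il27 (92.8 ± 49.3), Ebi3 (64.4 ± 23.5), Il6 (19.6 ± 16.8), Il23a (9.87 ± 9.05), Il12b (6.13 ± 2.98), Il10 (4.34 ± 3.13) and Il12a (0.213 ± 0.369). Ebi3 did not overlap with Il6, nor Il10 with Il12a, and all other neighbours in that order overlapped. In bleomycin libraries the order was Ebi3 (149 ± 34.1), Il10 (122 ± 74.4), Il12b (79.3 ± 42.2), Il27 (70.7 ± 17.4), Il6 (67.4 ± 29), Il23a (20.7 ± 4.04) and Il12a (1.68 ± 2.48). There the first 5 overlapped from neighbour to neighbour, and Il6 did not overlap with Il23a nor Il23a with Il12a.

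**Figure D2:**
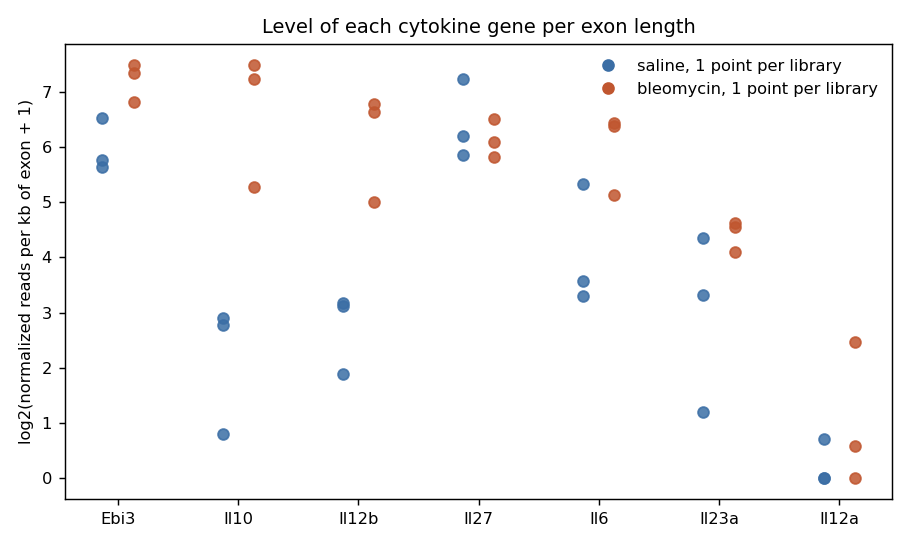
Level of each cytokine gene per exon length (y axis, log2 of normalized reads per kb of exon plus 1) in saline and bleomycin libraries, with genes in the order of their bleomycin means and 1 point per library. Il10 and Il12b move from under 8.0 to over 31 reads per kb, with bleomycin means above that of Il27, while Il12a lies between 0 and 4.52.

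Among the genes in the table the Il10 level per kb went from percentile 39.2 to percentile 70.1, and that of Il12b from 42.4 to 64.9. By group mean all 7 were below Il10ra, Il10rb, Il6ra and Il6st per kb in both groups, of which Il6st was the lowest at 278 ± 46.4 with saline and 216 ± 48.5 with bleomycin. As a share of the 7 genes' summed level per kb, Il27 made up 45.7, 47.6 and 46.9% in saline libraries and 27.4, 10.8 and 9.44% in bleomycin libraries. Il10 made up 0.604, 1.86 and 4.18% with saline and 11.5, 29 and 25.3% with bleomycin. The share of Ebi3 was 29.2 to 39.1% in saline and 26 to 34% in bleomycin libraries, so the groups overlapped. In bleomycin replicate 1 the make-up lay between that of the saline libraries and that of the other bleomycin libraries for Il27, Il12b and Il10.

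**Figure D3:**
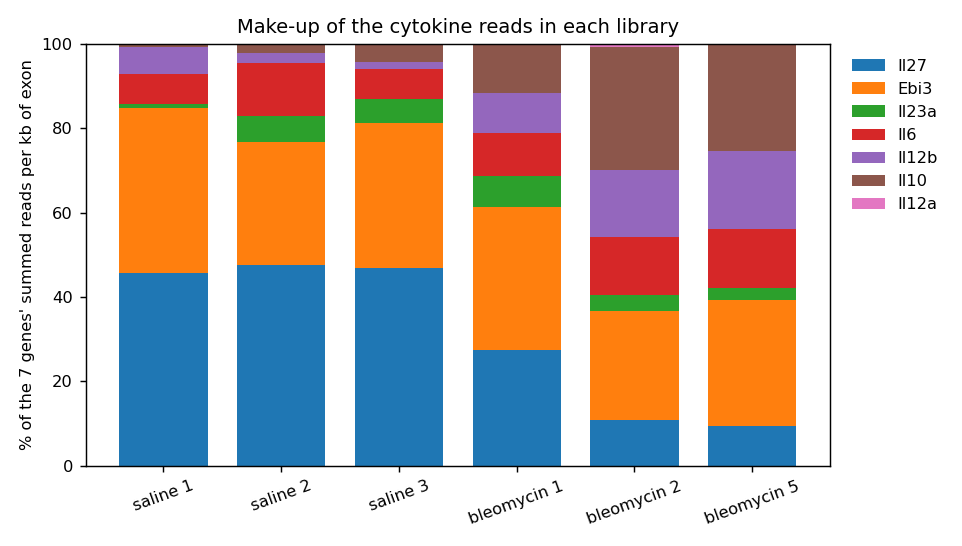
Share of each cytokine gene (stacked bars, % of the 7 genes' summed normalized reads per kb of exon) in each of the 6 libraries. Il27 makes up 45.7 to 47.6% with saline and 9.44 to 27.4% with bleomycin, and Il10 and Il12b take larger shares.

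The genes whose profiles over the 6 libraries were nearest to each cytokine are given by the root mean square difference of log2 values centred on each gene's mean, a description over 6 libraries in which the group difference weighs most. Nearest to Il12b were Vcam1, an adhesion molecule (0.21), Ms4a6b (0.23) and the laminin chain gene Lama5 (0.25). Nearest to Il10 were Gimap6 (0.28), the syndecan gene Sdc1 (0.35) and the Toll-like receptor gene Tlr1 (0.37). Ebi3 was nearest to Hmcn2 (0.022), the mannosidase gene Man1a (0.074) and the carbonic anhydrase gene Car13 (0.12). For Il6 they were H2-M2 (0.21), the platelet-activating factor receptor gene Ptafr (0.22) and Met (0.26). Il23a had the chemokine gene Cxcl1 nearest (0.28), followed by St5 (0.43) and Wfdc18 (0.43). Il27 was nearest to the early response genes Dusp6 (0.12) and Ier2 (0.15) and to the death receptor gene Fas (0.18). Cxcl1 had 168, 2688 and 1348 with saline and 2073, 3268 and 1882 with bleomycin, and Dusp6 had 1089, 3003 and 1417 with saline and 1545, 1356 and 1282 with bleomycin. Both were highest among saline libraries in replicate 2, as were Il23a, Il27, Ebi3 and Il6.

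Of the 6 tested receptor genes 0 passed the threshold by limma, in either direction. At an unadjusted p under 0.05 there were 3 (Il12rb2, Il27ra and Il10rb), as there were 3496 of the 13512 tested genes. EdgeR called 0, with 9.64% of all tested genes higher and 3.83% lower, and DESeq2 called Il10rb higher and Il12rb2 lower, with 11.4% higher and 5.69% lower. Il10ra, the ligand-binding chain for interleukin 10, was the highest of them per kb, and its values were 4169 ± 928 with saline and 4205 ± 279 with bleomycin (log2 0.03 ± 0.16, 95% interval -0.34 to 0.41, limma adjusted p = 0.929). Its partner Il10rb had values of 1760, 2577 and 1978 with saline and 2978, 2969 and 2882 with bleomycin. The groups did not overlap, and the difference was at log2 0.50 ± 0.15 (limma adjusted p = 0.0584). Without saline replicate 2 it passed (log2 0.66, adjusted p = 0.0122). Il10rb did not pass when any other single library was left out (limma adjusted p = 0.0892 to 0.175), nor with the replicate block (0.449). Of its exon bases 14.9% are shared with the predicted gene Gm21970 on the same strand, so its level is uncertain.

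For interleukin 6, the receptor gene Il6ra stood at 2811 ± 1100 with saline and 2814 ± 467 with bleomycin (log2 0.05 ± 0.25, limma adjusted p = 0.926). Il6st, which encodes gp130, had 3090 ± 515 and 2392 ± 538 (log2 -0.38 ± 0.19, limma adjusted p = 0.263). Il27ra, the specific chain of the interleukin 27 receptor, had values of 375, 542 and 321 with saline and 238, 315 and 262 with bleomycin. Each bleomycin library lay below each saline library, and the difference did not pass (log2 -0.57 ± 0.22, limma adjusted p = 0.139).

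For interleukins 12 and 23, the shared receptor chain Il12rb1 had 0, 3 and 0 saline reads and 1, 2 and 8 bleomycin reads, and the ratio per size factor, 3.32, had a 95% counting interval from 0.877 to 18.5. Il23r had 0 reads in every saline library and 1, 2 and 5 in bleomycin libraries. That is 2.42-fold higher when the saline group is set to its floor of 3 reads, with counting error left out. The 95% Poisson intervals of the group reads, 0 to 3.69 with saline and 3.45 to 15.8 with bleomycin, overlapped. Il12rb2 had values of 521, 323 and 206 with saline and 58.4, 176 and 172 with bleomycin, with no overlap (log2 -1.42 ± 0.47, limma adjusted p = 0.0893). Of its exon bases 40% are shared with Serbp1 on the opposite strand, an abundant gene with values of 9489 to 13900, so the source of the Il12rb2 reads is uncertain.

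**Figure D4:**
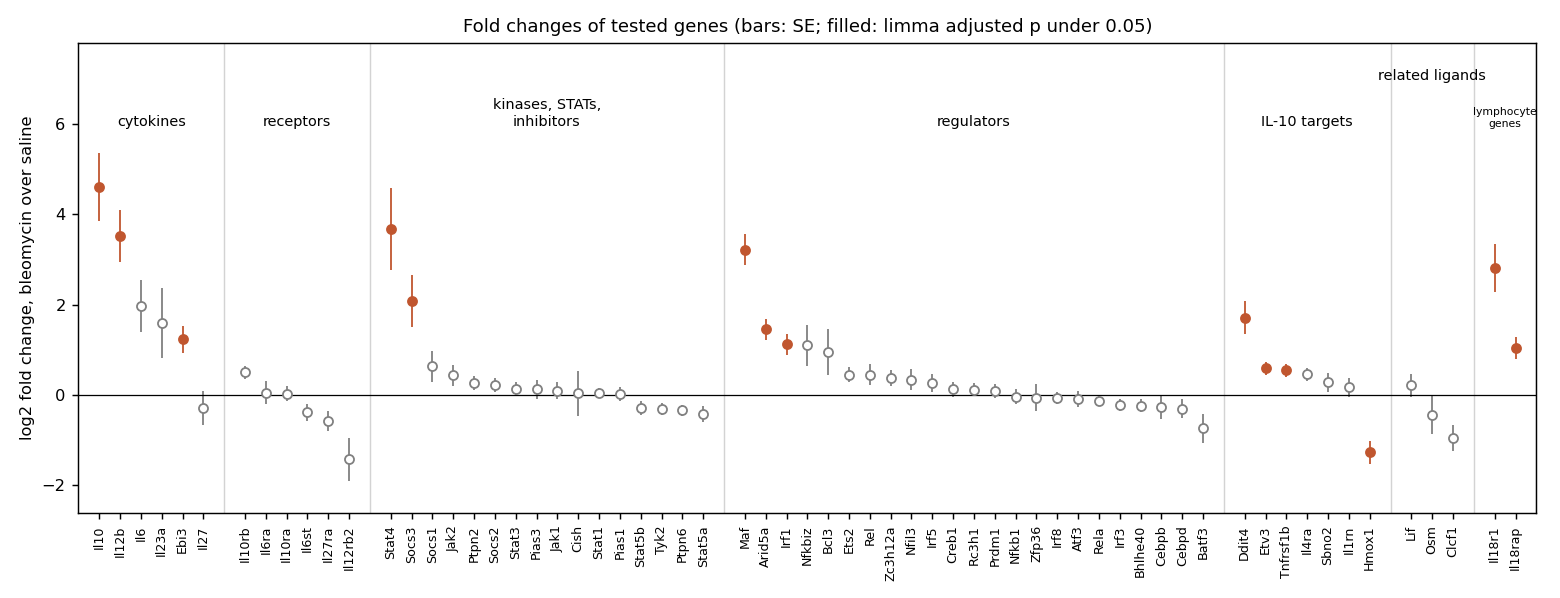
Log2 fold change of bleomycin over saline (y axis) ± SE for each tested gene of the cytokines, their receptors and 5 related lists; a gene in several lists is drawn once, and filled points passed limma at an adjusted p under 0.05. Il10 (log2 4.61) and Il12b (log2 3.52) lie high, and the 6 receptors lie between log2 -1.42 and 0.50 with none filled.

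Of 16 genes of the kinases, STAT factors and feedback inhibitors that these receptors use, 2 rose and 0 fell. The share that rose, 12.5%, was near the 9.76% over all tested genes, so the count is no result about the list. Over all tested genes 3.9% were called lower. Stat4, the factor that carries the interleukin 12 signal in lymphocytes, had 9.81, 0 and 9.54 with saline and 38.6, 54.9 and 107 with bleomycin (log2 3.68 ± 0.90, limma adjusted p = 0.0293). All its saline values were under 10, so it passed the filter through its bleomycin libraries alone. Socs3, the inhibitor that STAT3 induces and that limits interleukin 6 signalling, had 301, 1865 and 645 with saline and 1965, 3988 and 3598 with bleomycin (log2 2.09 ± 0.58, limma adjusted p = 0.0454). Stat4 did not pass without bleomycin replicate 2 or 5 (adjusted p = 0.0807 and 0.118), nor Socs3 without any 1 of saline replicates 1 and 3 and bleomycin replicates 2 and 5 (0.0894 to 0.139), by edgeR (0.0905) or by DESeq2 (0.115). Stat4 shares 26.7% of its exon bases with the predicted gene Gm28177 on the same strand, so its level is uncertain. The phosphatase gene Ptpn6, the next by p, had log2 -0.34 ± 0.12 (limma adjusted p = 0.102). Stat3 itself had log2 0.14 ± 0.15 (limma adjusted p = 0.656).

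Of 23 genes known to control transcription or decay of these cytokine mRNAs, 3 rose (13%) and 0 fell. These shares were near the 9.76% higher and 3.9% lower over all tested genes, so the count is no result about the list. Maf, a factor that promotes Il10 transcription, had 17.7, 25 and 21.2 with saline and 128, 243 and 276 with bleomycin, 9.33-fold higher (log2 3.22 ± 0.33, limma adjusted p = 0.000579). Arid5a, which stabilizes Il6 mRNA, went from 209 ± 29.1 to 587 ± 167 (log2 1.45 ± 0.24, limma adjusted p = 0.00473). Irf1, an interferon-induced factor that acts on Il12a and Il12b, went from 1494 ± 538 to 3110 ± 138 (log2 1.12 ± 0.23, limma adjusted p = 0.0142), and missed the threshold without bleomycin replicate 5 (0.0562) or an intensity trend (0.0517). Maf and Arid5a were called in each of the 18 other settings. The count was 9 without saline replicate 2 and bleomycin replicate 1 together, and 5 without either 1 of them. Over all tested genes the count of rises moved too. It was 1319 with all libraries, 1597 without both, 1176 without saline replicate 2 and 1457 without bleomycin replicate 1.

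Of 12 tested genes reported to be induced by interleukin 10 in macrophages, 4 rose and 1 fell (33.3% rose), with a median log2 fold change of 0.40. Over all tested genes 9.76% were called higher and 3.9% lower, with a median of -0.01. Those with the smallest p were Hmox1, heme oxygenase, which fell (log2 -1.27 ± 0.24, limma adjusted p = 0.01), Ddit4 (log2 1.72 ± 0.37, 0.0174) and the transcription factor gene Etv3 (log2 0.59 ± 0.15, 0.0349). The others that rose were Socs3 and Tnfrsf1b, named because of their values. Hmox1 had 21670, 38226 and 45015 with saline and 14056, 14883 and 12717 with bleomycin, and every bleomycin library was below every saline library. Only 1 of the 13 genes listed, the scavenger receptor gene Cd163, was under the filter. Hmox1 was called in each of the 18 other settings, whereas Ddit4 did not pass without bleomycin replicate 2 or 5 (limma adjusted p = 0.0981 and 0.089), and Etv3 and Tnfrsf1b missed the threshold in 7 and 9 settings. The count of rises was 0 without bleomycin replicate 2 or 5, and 1 without saline replicate 1 or 3. Over all tested genes it was 787 and 768 without bleomycin replicates 2 and 5, and 1157 and 1098 without saline replicates 1 and 3.

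Markers of the cell types that the adherent fraction could hold also differed between the groups, in both directions. Over all tested genes 9.76% were called higher and 3.9% lower. All 10 monocyte and monocyte-derived macrophage markers rose, with sums of 2625 to 3425 in saline and 141492, 241473 and 267277 in bleomycin replicates 1, 2 and 5. Apoe made up most of these sums, with 2063 to 2479 in saline and 112162, 183748 and 203688 in bleomycin libraries. Of 10 markers of resident alveolar macrophages 5 fell and 0 rose, with sums of 552176 to 694171 in saline and 326716 to 427531 in bleomycin libraries. Chil3 made up most of these sums, with 311298 to 476558 in saline and 179106 to 264167 in bleomycin libraries. The 5 not called were Marco, Fabp4, Pparg, Itgax and Mrc1. Siglecf had 12651 to 16187 and 7228 to 8182, so transcripts of the labelled cell type were present in both groups. Of 9 dendritic cell markers 7 rose, with sums of 344 to 760 in saline and 1476, 3160 and 3421 in bleomycin replicates 1, 2 and 5. Among them were Ccr7, the receptor of migrating dendritic cells, with 279, 794 and 830 and Fscn1 with 273, 655 and 770 in bleomycin libraries.

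All 6 tested genes of the T and natural killer cell list rose, and all 6 are T cell genes. Klrb1c, a natural killer cell gene, and Gzma were below the filter. Klrb1c overlapped between groups, at 1.96, 5.43 and 8.48 with saline and 8.08, 6.59 and 10.3 with bleomycin. The sums of the list were 16.3 to 37.3 with saline and 179, 469 and 585 with bleomycin. The T cell receptor complex genes Cd3d, Cd3e, Cd3g and Trac all had reads with bleomycin. These 4 and Cd8a were under 10 in every saline library and Cd4 was over 10 in 1, so the 6 genes passed the filter through their bleomycin values, and the count describes them and is no test. The same holds for Cd79a among the B cell markers and Siglech among the dendritic cell markers. Other tested markers also had a saline value under 10 and needed bleomycin libraries to pass. They were Ly6c2, Cx3cr1, F13a1, Flt3, Cd209a, Ighm, S100a9, Sftpa1, Krt8, Col1a2, Col3a1, Dcn and Pdgfra. The counts of rises in their lists are therefore descriptions too. The 2 tested B and plasma cell markers rose, and the sums of all 6 were 16.3 to 22.6 with saline and 82.6, 867 and 595 with bleomycin. In all 4 of these lists of recruited or lymphoid cells, bleomycin replicate 1 was the lowest bleomycin library, as it was for Il12b, Il10, Il6 and Ebi3. The same replicate was the highest bleomycin library for Il23a, Il27 and the sum of the fibroblast markers. Siglech and Gzma were at 0 reads in all 3 saline libraries. Neutrophil markers summed to 1464 to 2850 in saline and 2926 to 3214 in bleomycin libraries, with 2 of 4 tested higher. Of these markers S100a9 was not called and was highest in saline replicate 2. It had 4.90, 503 and 7.42 with saline and 20.7, 56 and 37.1 with bleomycin. Of 7 epithelial markers 5 rose (Sftpc, Sftpa1, Krt8, Krt18 and Ager, log2 2.32 to 4.32) and 1, Epcam, fell (log2 -1.66), with a median log2 fold change of 2.94. Epcam made up most of their sum in saline libraries, and the sum was 4316 to 5061 with saline and 2733 to 3117 with bleomycin. Fibroblast markers summed to 35.3 to 321 and 219 to 849, with 2 of 5 tested higher. The part of these cells in the cytokine results was not tested.

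**Figure D5:**
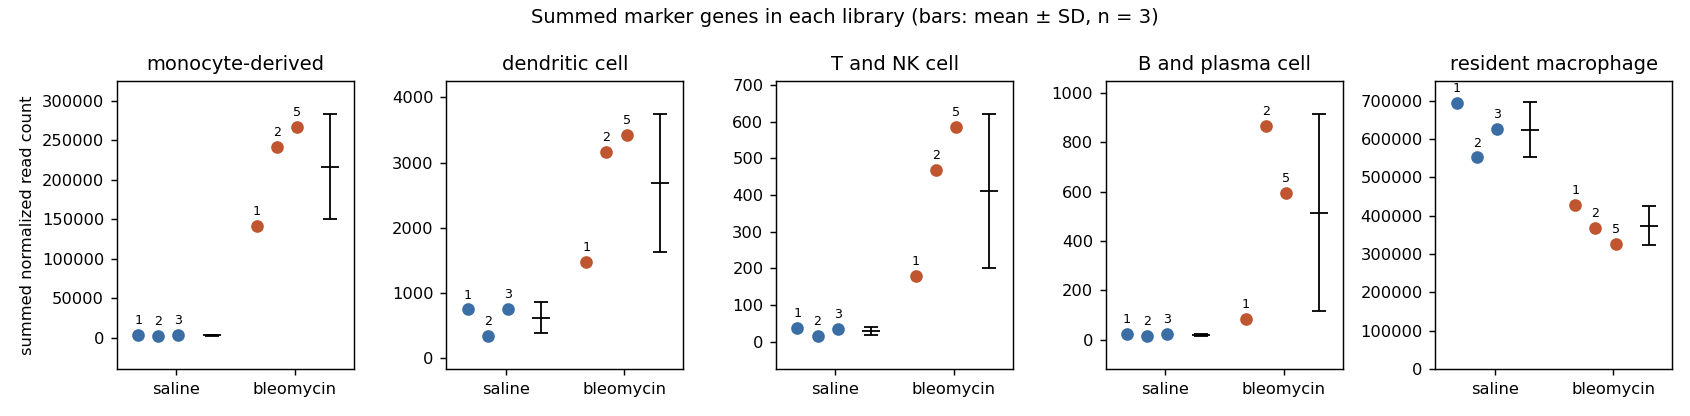
Summed normalized read counts (y axes, linear and each with its own range) of fixed marker lists of 5 cell types in each library; points are libraries with replicate numbers, and bars show the mean ± SD of 3 libraries. Monocyte-derived, dendritic, T and NK, and B and plasma cell sums are higher in every bleomycin than in every saline library and lowest among bleomycin libraries in replicate 1, while resident macrophage sums are lower after bleomycin. Apoe makes up most of the monocyte-derived sum in each library, and Chil3 most of the resident macrophage sum.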

How the data were processed

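RNA of adherent lavage cells was sequenced in 3 saline and 3 bleomycin libraries. The deposited values are a normalized signal: the authors divided gene read counts by a size factor per library, since whole reads were recovered for 100% of values above 0 (within 0.05 of a read). The submitters' processing notes name the build mm10 and the tools DESeq2, HTSeq 0.6.0, STAR 2.5.2b and bcl2fastq 2.18.0.12. Not given in the sources used here are what each tool did, the annotation and whether counting used strand.

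Symbols were matched for 22873 of 22962 identifiers, and exon lengths and coordinates are from GENCODE on GRCm38, the assembly that mm10 names. Log2(value + 1) was compared between groups with limma 3.58.1 (R 4.3.3), with an intensity trend, two-sided and with no covariate. Alternatives were other pseudocounts, filters, normalizations and variance models, edgeR 4.0.16 and DESeq2 1.42.0 on the recovered reads (9.64% and 11.4% of tested genes called higher), the replicate number as a block, and fits without a library. The fit was tested on simulated counts. Read intervals (95%, exact Poisson or binomial) cover counting error only.

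The genes named are the 7 cytokines, all receptors, the 3 smallest p of each other list and the 3 nearest profiles per cytokine, leaving out predicted genes; others were named for their values. The members, lists, motifs and markers were chosen with earlier results of these data known. Il22, Ncr1, Ly6g and Elane were not analysed here, and 4 other listed genes are not reported here and are left out of the counts of their lists.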

Additional observations from a re-analysis of the deposited data

How the results depend on the processing

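Directions and calls of Il12b, Il10 and Il23a held in every alternative that could test them; Il10 and Il23a have no value at a minimum of 50, and Il12a was tested with no filter alone (log2 0.98, limma adjusted p = 0.571). Leaving out 1 library at a time gave 768 to 1457 genes higher and 183 to 624 lower, log2 fold changes of 1.062 to 1.513 for Ebi3, 1.57 to 2.61 for Il6, 0.615 to 2.363 for Il23a, -0.579 to 0.11 for Il27, -0.11 to 0.357 for Il6ra, -0.138 to 0.19 for Il10ra and -0.909 to 0.104 for Osm, so the last 4 changed sign. In the same fits 0 to 1 receptors were higher, 0 to 2 signalling genes higher and 0 to 1 lower, 2 to 5 regulators higher and 0 to 1 lower, 0 to 5 interleukin 10 targets higher and 0 to 2 lymphocyte genes higher. Replicates share only numbers 1 and 2, and deviations of same-numbered libraries correlated at -0.201 and 0.024 over genes. Those of saline 1 with bleomycin 2 and saline 2 with bleomycin 1 correlated at 0.137 and -0.027. These values cannot settle whether the numbers pair the samples, and the labels do not say. With the replicate block 194 genes were lower, Ebi3 was at log2 0.994 (adjusted p = 0.159, not called), Il6 at 1.508 (0.025, called) and Il6ra at -0.218; 1 receptor was lower, 1 interleukin 10 target and 1 lymphocyte gene were higher, and 1 related ligand was lower, and no other cytokine call changed. Without an intensity trend Ebi3 (log2 1.235) was not called, 0 signalling genes and 1 interleukin 10 target were higher. By DESeq2 Il6 was called (log2 1.787), with 1 receptor higher and 1 lower, 1 signalling gene higher and 1 related ligand lower; by edgeR 1 signalling gene was higher. With quantile normalization 1 receptor and 1 related ligand were lower and 1 lymphocyte gene higher. At a minimum of 50, 0 signalling genes, 2 interleukin 10 targets and 1 lymphocyte gene were higher. With saline replicate 2 and bleomycin replicate 1 both left out, an alternative chosen after seeing the data, Il6 was at log2 3.042, Osm at 0.197, and 1 receptor, 9 regulators and 8 interleukin 10 targets were higher and 1 regulator lower. Over all tested genes 1597 were higher and 607 lower in that fit. The cause of these changes was not tested. Depth limits Il12a, Il12rb1, Il23r and the saline level of Il10, which rest on 16 reads or fewer.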

Other observations

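Ligands related to interleukins 6 and 10 were mostly near or under the level the test could use. Of 9 measured ligands 3 were tested, and limma and edgeR called 0 of them; at an unadjusted p under 0.05 there was 1, Clcf1, a gp130 ligand, which DESeq2 called lower, as there were 3496 of the 13512 tested genes. Clcf1 was lower in each bleomycin than in each saline library, at 96.1, 199 and 191 against 258, 342 and 300 normalized reads, and did not pass (log2 -0.95 ± 0.29, limma adjusted p = 0.0671). Osm, oncostatin M, was at 1913, 7800 and 3399 with saline and 2410, 2931 and 2915 with bleomycin (log2 -0.43 ± 0.42, limma adjusted p = 0.596). Saline replicate 2 was far above all other libraries for Osm, as it was the highest saline library for Il6, Il23a, Il27 and Ebi3. Lif, which also signals through gp130, had log2 0.22 ± 0.25 (limma adjusted p = 0.667). The interleukin 10 relatives Il19, Il20 and Il24 had 0 reads in saline libraries and 5, 2 and 4 over the bleomycin group.

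Genes that interleukins 12 and 23 act on in lymphocytes were few in reads. The chains of the interleukin 18 receptor rose, and they were the 2 tested genes of 7. Over all tested genes 9.76% were called higher. Il18r1 was at 11.8, 3.26 and 6.36 with saline and 28.7, 65.9 and 69 with bleomycin (log2 2.81 ± 0.54, limma adjusted p = 0.00946), and Il18rap at 57.9, 45.6 and 54.1 and then 92.5, 114 and 122 (log2 1.04 ± 0.24, 0.0207). Il18r1 could pass the filter only through its bleomycin libraries. Without bleomycin replicate 2 or 5 neither passed (limma adjusted p = 0.0522 and 0.0535 for Il18r1, 0.105 and 0.116 for Il18rap). The interferon gamma gene Ifng had 0 reads over the saline group and 1, 0 and 7 in bleomycin libraries, of which 7 came from bleomycin replicate 5. Tbx21, the T helper 1 lineage factor, had 10 saline and 36 bleomycin reads, Il17a had 0 and 3, and Il17f had 5 and 0, all 5 in saline replicate 2. T cell markers were higher in the same bleomycin libraries, and their part in these values was not tested.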
